A study of Rattus norvegicus with 32 samples.

Results

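Red cell transcripts were followed in the livers of juvenile and young adult rats through 9 genes that serve the erythroid lineage: Alas2, Hbb, Gata1, Klf1, Hemgn, Slc4a1, Epb42, Ahsp and Rhag. They were taken by symbol, and all 9 were found among the 17327 genes of the count table. The livers came from Charles River Sprague Dawley rats whose Serpina6 gene, which encodes the glucocorticoid carrier corticosteroid-binding globulin (CBG), had been ablated with CRISPR/cas9, and from wild-type rats of that strain. Every combination of sex (male, female), genotype (WT, KO) and age (30 or 60 days) held 4 libraries, 32 in all, each from whole liver under basal conditions. The labels do not say whether the knockout rats descend from 1 founder, and p-values below measure the spread between the libraries of a group.

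Red cells are made from progenitors that switch on heme synthesis and globin genes together while they rebuild their membrane and lose their nucleus. In rodents the fetal liver is the main site of this process, which moves to bone marrow and spleen around birth. A liver sampled later also holds circulating red cells, and the youngest of these, the reticulocytes, still carry globin and other late erythroid messages. In whole tissue, fewer cells of a type and less RNA per cell cannot be told apart.

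Serpina6 matched every genotype label, at 421 to 1357 CPM (read counts scaled to a common library total) in the 16 wild-type libraries and 25.5 to 131 CPM in the 16 knockout libraries. Albumin (Alb), the main secreted protein of hepatocytes, lay between 126983 and 206972 CPM over all livers. Libraries held 12951969 to 21954929 gene reads, none under 16806943 in the younger rats and none over 17133332 in the older ones, so depth nearly separates the ages. The labels name no batch. Replicate 1 of the 60-day KO females stood apart from the rest: 14 photoreceptor genes, a list chosen with earlier results known, summed to 2136 CPM there and to 2.89 to 11.2 CPM in the others. Results that use this library are given with and without it where it changes a call.

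The proximal promoters of the genes are shown because erythroid genes are classically bound by GATA factors, by the Krüppel-like factor Klf1 at CACC boxes, and by CCAAT-binding factors. RefSeq promoters of the GRCr8 assembly matched 7 of the 9 genes, and Ahsp and Slc4a1 had no entry. The 250 bases before the start of transcription are printed 5′ to 3′ for 5 genes, with capitals marking 4 words on either strand: the GATA words AGATAA and also TGATAA, the CACC box CCNCNCCC, and the CCAAT box.
Alas2, chrX:22895200-22895449, plus strand: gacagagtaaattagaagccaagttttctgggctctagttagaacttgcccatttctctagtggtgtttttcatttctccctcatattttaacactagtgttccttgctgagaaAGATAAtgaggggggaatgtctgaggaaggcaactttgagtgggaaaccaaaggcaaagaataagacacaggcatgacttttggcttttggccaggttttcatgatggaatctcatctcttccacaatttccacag
Hbb, chr1:167663722-167663971, minus strand: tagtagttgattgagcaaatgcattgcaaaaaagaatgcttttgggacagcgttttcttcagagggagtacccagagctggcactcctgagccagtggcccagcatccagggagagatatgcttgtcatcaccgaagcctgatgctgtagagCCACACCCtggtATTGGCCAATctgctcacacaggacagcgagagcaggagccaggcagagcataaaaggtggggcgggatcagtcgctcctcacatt
Klf1, chr19:40158652-40158901, minus strand: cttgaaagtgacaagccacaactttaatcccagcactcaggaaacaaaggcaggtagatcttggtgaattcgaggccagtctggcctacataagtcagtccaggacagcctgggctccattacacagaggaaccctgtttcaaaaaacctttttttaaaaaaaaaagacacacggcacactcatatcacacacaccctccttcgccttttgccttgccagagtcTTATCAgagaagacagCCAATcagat
Hemgn, chr5:65485822-65486071, minus strand: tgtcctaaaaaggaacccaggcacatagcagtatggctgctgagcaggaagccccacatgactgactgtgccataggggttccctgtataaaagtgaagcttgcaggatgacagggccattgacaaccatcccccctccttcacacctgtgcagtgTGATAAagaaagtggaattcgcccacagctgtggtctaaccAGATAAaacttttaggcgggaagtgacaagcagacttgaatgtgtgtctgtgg
Epb42, chr3:128451684-128451933, minus strand: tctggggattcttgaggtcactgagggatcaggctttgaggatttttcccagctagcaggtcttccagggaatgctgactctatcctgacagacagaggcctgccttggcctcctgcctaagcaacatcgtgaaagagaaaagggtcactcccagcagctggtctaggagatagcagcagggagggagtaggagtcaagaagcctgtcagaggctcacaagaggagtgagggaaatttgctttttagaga

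The Alas2 promoter held AGATAA 136 to 131 bases before its start. The Hbb promoter held a CACC box (CCNCNCCC) at 98 to 91 bases, next to a pair of CCAAT boxes on opposite strands that abut at 86 to 77 bases. Klf1 carried TGATAA on the minus strand 26 to 21 bases before its start and a CCAAT box at 10 to 6 bases. The Hemgn promoter shown, the second of 2 RefSeq entries, held both GATA words, at 94 to 89 and 53 to 48 bases. It is shown because it holds them: the other Hemgn entry held no GATA word, only CCNCNCCC on the minus strand at 148 to 141 bases. The Epb42 window held none of the 4 words. Other forms of the GATA site, such as AGATAG, which this window holds, were not searched for. Over the 7 genes, AGATAA was found in 2, TGATAA in 3, CCNCNCCC in 3 and CCAAT in 3, where a gene with 2 entries counted if either held the word. Of 33469 rat promoters of this length, 10.3% held AGATAA, 7.97% had TGATAA, 42.8% had CCNCNCCC and 34.0% had CCAAT. The CCNCNCCC and CCAAT words are thus common, and the GATA words less so. With 7 genes no excess of any word was tested, so a match is a description only.

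Different levels of signal were seen among the genes. Hbb, the adult beta globin chain of hemoglobin, Alas2, the erythroid form of the first enzyme of heme synthesis, and Slc4a1, the band 3 anion exchanger of the red cell membrane, had reads in all 32 livers. Ahsp, the chaperone of free alpha globin, had between 1 and 30 reads a library. Epb42, the membrane protein 4.2 that binds band 3, and Hemgn, a nuclear protein of erythroid precursors, had at most 30 and 35 reads and were at 0 in 2 libraries each. Klf1, the activator of adult beta globin, had 130 reads in all, between 0 and 9 a library. Rhag, the Rh-associated glycoprotein, had 22 reads in all and was found in 15 libraries. Gata1, the master regulator of the lineage, had no read in any library among 543725794 gene reads.

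A count of 0 allows up to 3 reads, or 0.132 to 0.247 CPM for Gata1 depending on the library, and covers counting error only. No library gives a check that reads can be assigned to the Gata1 row. The filter on low counts kept 6 of the 9 genes (Hbb, Alas2, Slc4a1, Ahsp, Hemgn and Epb42), and Gata1, Klf1 and Rhag fell under it.

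**Figure D1:**
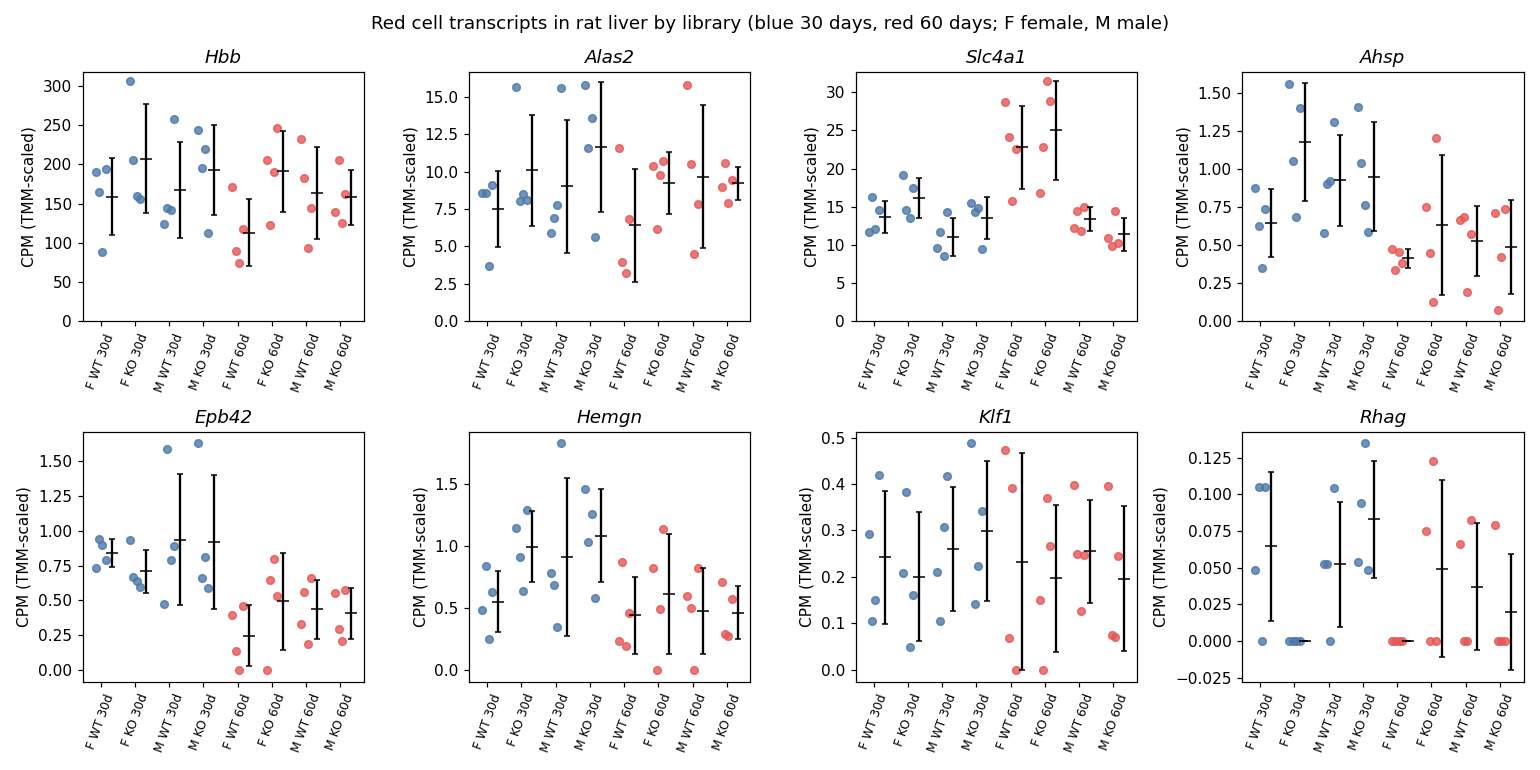
CPM, scaled by trimmed mean of M-values (TMM), of 8 erythroid genes in each liver (points), with the mean and SD of each group of 4 (black bars); the vertical axis differs between panels and each SD bar may run below 0. Epb42, Ahsp and Hemgn reach lower values at 60 days, while Slc4a1 stands highest in the 60-day females.

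The first question was how red cell transcripts of the liver change between 30 and 60 days. Averaged over both sexes and both genotypes, Epb42, Ahsp and Hemgn were lower at 60 days and Slc4a1 was higher. Hbb and Alas2 did not pass the test. Thus 4 of the 6 tested genes were called, beside 53.0% of all 11002 genes tested, so the share is near the background of this comparison. By direction, 26.8% of all genes were lower and 26.3% higher. The median log2 difference of the 6 genes was -0.51, against -0.003 over all genes tested. The filter on low counts asks for a level near 10 reads in at least 4 libraries, of whatever age. Median reads at 30 and 60 days were 16 and 5.5 for Epb42, 17.5 and 7 for Ahsp, and 15.5 and 7.5 for Hemgn. Their 30-day libraries alone could thus bring these genes into the test, which favours rare members that are high at 30 days. With no filter Hemgn lost its call, as given below.

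Epb42 ranged from 0.472 to 1.62 CPM at 30 days (median 0.789, 16 livers) and from 0 to 0.799 CPM at 60 days (median 0.427). The ages overlap between 0.472 and 0.799 CPM, and both livers without an Epb42 read were 60-day females. It was 2.20-fold lower at 60 days, a log2 difference of -1.14 (SE 0.28, 95% interval -1.70 to -0.58; adjusted p = 0.000883, edgeR). These rest on 270 reads at 30 days and 90 reads at 60 days. Without the library that holds photoreceptor transcripts, which had 0 Epb42 reads, the Epb42 difference was -1.05 (adjusted p = 0.000496).

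Ahsp ranged from 0.350 to 1.56 CPM at 30 days (median 0.888) and from 0.0739 to 1.20 CPM at 60 days (median 0.464). The ages overlap, with the median of 60 days near the low end of the 30-day range, and a KO female reached the highest 60-day value. The log2 difference of Ahsp was -0.83 (SE 0.24, 95% interval -1.32 to -0.34; adjusted p = 0.00428), 1.78-fold lower. It kept its call in each of the 32 fits that left out 1 library, with adjusted p between 0.00106 and 0.00924.

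Hemgn ranged from 0.250 to 1.83 CPM at 30 days (median 0.812) and from 0 to 1.14 CPM at 60 days (median 0.495). The ages overlap over most of this range. The log2 difference of Hemgn was -0.80 (SE 0.32, 95% interval -1.44 to -0.15; adjusted p = 0.0359), 1.74-fold lower. This call rested on single libraries: it was lost in 10 of 32 fits that left out 1. Without replicate 4 of the 30-day WT males the Hemgn difference was -0.64 (adjusted p = 0.0861). Adjusted p for Hemgn was 0.0653 without replicate 2 of the 30-day WT females, 0.0519 and 0.0542 without replicates 1 and 4 of the 30-day KO females, and 0.0552 without replicate 1 of the 30-day KO males. Leaving out replicates 1 and 3 of the 60-day WT females gave 0.0556 and 0.0591, and the value was 0.0507 without replicate 3 of the 60-day KO females, and 0.0555 and 0.0569 without replicates 2 and 3 of the 60-day KO males.

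Slc4a1 moved the other way, with a log2 difference of 0.35 (SE 0.10, 95% interval 0.15 to 0.55; adjusted p = 0.00365), 1.28-fold higher at 60 days. This average joins differences of 0.74 in WT females, 0.63 in KO females, 0.28 in WT males and -0.24 in KO males, and neither male value was called. It ranged from 8.57 to 19.2 CPM at 30 days (median 14.3) and from 9.90 to 31.5 CPM at 60 days (median 15.3). The high values were those of 60-day females, described below. The scaling between libraries bears on this gene, because library totals alone shift the median of all genes by -0.16 between the ages. With totals alone, the Slc4a1 difference was 0.19 (adjusted p = 0.0893), that of Hbb was -0.40 (adjusted p = 0.0389), and 4 members were called lower and 0 higher, in place of 3 and 1.

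Hbb ranged from 87.7 to 306 CPM at 30 days (median 177) and from 74.3 to 246 CPM at 60 days (median 153). The ages overlap almost completely. The log2 difference of Hbb was -0.23 (SE 0.16, 95% interval -0.57 to 0.10; adjusted p = 0.237). Alas2 ranged from 3.70 to 15.8 CPM at 30 days (median 8.55) and from 3.26 to 15.8 CPM at 60 days (median 9.21), with a log2 difference of -0.15 (SE 0.20, 95% interval -0.56 to 0.26; adjusted p = 0.552). A fall of the size seen in Hemgn lies outside both intervals, and smaller changes lie within them.

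For the 2 rare transcripts outside the fit, an exact permutation of ages within each sex and genotype was used (two-sided, 24010000 arrangements). Klf1 had 80 reads at 30 days and 50 at 60 days, and its mean log2 CPM differed by -0.20 (exact p = 0.407). Rhag had 16 reads at 30 days and 6 at 60 days, with a difference of -0.22 (exact p = 0.142). Neither difference was detectable at this depth.

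**Figure D2:**
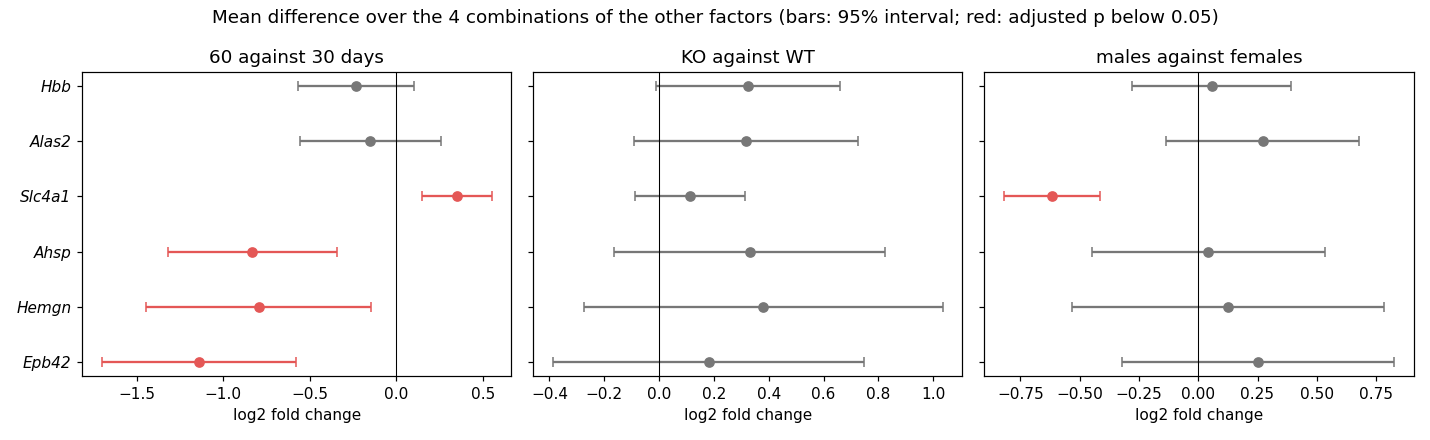
Log2 fold change of the 6 tested erythroid genes for age, genotype and sex, each averaged over the 4 combinations of the other 2 factors (points, with 95% interval; red marks an adjusted p below 0.05). Epb42, Ahsp and Hemgn lie left of 0 for age, Slc4a1 right of 0 for age and left of 0 for sex, and all 6 lie right of 0 for genotype without a call.

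Within single combinations of sex and genotype, fewer genes passed. In WT females, Slc4a1 was higher at 60 days (log2 0.74, SE 0.19, adjusted p = 0.00426) and Epb42 lower (log2 -1.80, SE 0.60, adjusted p = 0.0200), where 33.1% of all genes were called. Epb42 was 0.732, 0.942, 0.900 and 0.787 CPM in the 30-day WT females and 0.394, 0.134, 0 and 0.461 CPM in the 60-day WT females. The groups do not overlap. The Epb42 call was lost without replicate 2 of the 60-day WT females (log2 -1.60, adjusted p = 0.0662) and without replicate 3 (log2 -1.36, adjusted p = 0.0784).

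In KO females, Slc4a1 was higher at 60 days (log2 0.63, SE 0.19, adjusted p = 0.0165), where 22.7% of genes were called. This Slc4a1 call was lost without replicate 2 or 3 of the 30-day KO females (adjusted p = 0.0525 and 0.0589) and without replicate 3 or 4 of the 60-day KO females (adjusted p = 0.0791 and 0.0550). It was not lost without the library that holds photoreceptor transcripts (log2 0.78, adjusted p = 0.00342). Leaving out replicate 4 of the 60-day KO females brought a call for Ahsp (log2 -1.44, adjusted p = 0.0369). No member passed in WT males, where 31.5% of genes were called, or in KO males, where 28.4% were. In both, Epb42 had the lowest unadjusted edgeR p-value of the members, 0.0433 in WT males and 0.0402 in KO males, and DESeq2 and limma-voom also called 0 members.

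Knockout of Serpina6 gave no called change in any member. Averaged over sexes and ages, all 6 tested genes had positive log2 differences between KO and WT, with a median of 0.32 against 0.01 over all genes, while 3.12% of genes were called. Several of these genes vary together between livers, as given below, so their shared sign is not 6 separate observations. The Hbb difference was 0.32 (SE 0.16, 95% interval -0.01 to 0.66; adjusted p = 0.290) and the Alas2 difference 0.32 (SE 0.20, 95% interval -0.09 to 0.73; adjusted p = 0.409). Ahsp differed by 0.33 (SE 0.24), Hemgn by 0.38 (SE 0.32), Epb42 by 0.18 (SE 0.28) and Slc4a1 by 0.11 (SE 0.10). In this average, 0 members had an unadjusted p under 0.05 in edgeR, and DESeq2 and limma-voom also called 0.

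The widest genotype gap in Hbb was in 60-day females. Hbb was 171, 89.7, 74.3 and 117 CPM in the 60-day WT females and 206, 122, 190 and 246 CPM in the 60-day KO females. The groups overlap, and 3 of the 4 KO livers lay above every WT liver. The log2 difference of Hbb was 0.76 (SE 0.33, 95% interval 0.08 to 1.43), with an unadjusted p of 0.0292 and an adjusted p of 0.180 in edgeR, where 6.77% of genes were called. In the other strata the Hbb difference was 0.38 in 30-day females, 0.21 in 30-day males and -0.05 in 60-day males, and 0.300%, 0.0545% and 0.209% of genes were called. Between the sexes at 60 days, the genotype difference of Hbb had an unadjusted p of 0.0928, the lowest of the 6 members in that test, which called 0.136% of genes. The same test at 30 days called 0 genes of 11002 and had a lowest member p of 0.178 (Ahsp).

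Sex separated 1 member. Slc4a1 was lower in males than in females on average (log2 -0.62, SE 0.10, adjusted p = 1.25e-05), in a comparison that called 30.2% of genes. The other 5 tested genes did not pass, with log2 differences from 0.04 (Ahsp) to 0.27 (Alas2).

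At 60 days the Slc4a1 gap was wide. Slc4a1 was 28.7, 24.2, 15.7 and 22.5 CPM in 60-day WT females and 12.3, 14.4, 11.8 and 15.0 CPM in 60-day WT males. It was 16.9, 22.9, 31.5 and 28.8 CPM in 60-day KO females and 10.9, 9.90, 14.5 and 10.2 CPM in 60-day KO males. In both genotypes the lowest female lay above the highest male. The log2 difference of males against females was -0.77 in WT (SE 0.20, adjusted p = 0.00417; 26.4% of genes called) and -1.14 in KO (SE 0.20, adjusted p = 0.000104; 18.5% called). Both Slc4a1 calls stood in every fit that left out 1 library.

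At 30 days the sexes overlapped. Slc4a1 was 13.7 ± 2.13 CPM in WT females and 11.0 ± 2.52 in WT males, 16.2 ± 2.61 in KO females and 13.5 ± 2.77 in KO males (SD, n = 4 each). The differences at that age, -0.31 in WT and -0.26 in KO, did not pass, where 2.07% and 2.24% of genes were called. In order of mean level, KO females (25.0 ± 6.51) and WT females (22.8 ± 5.38) of 60 days came first, and differed by less than either SD. The other 6 groups lay between 11.0 and 16.2 CPM, and neighbours in that order differed by less than the larger of their SDs.

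Whether the age difference of Slc4a1 depended on sex was tested directly. The interaction was -0.88 in KO rats (SE 0.28, adjusted p = 0.0677; 4.69% of genes called) and -0.45 in WT rats (SE 0.28, adjusted p = 0.347; 9.00% called), so neither passed. In KO rats the Slc4a1 interaction passed without the library that holds photoreceptor transcripts, replicate 1 of the 60-day KO females (-1.02, adjusted p = 0.0266). It also passed without replicate 1 of the 30-day KO females (adjusted p = 0.0490), replicate 4 of the 30-day KO males (0.0283) or replicate 3 of the 60-day KO males (0.0355). DESeq2 gave an adjusted p of 0.0373 for this Slc4a1 interaction. No member was called for age by genotype, in females (2.96% of genes called) or males (0.00909%); the lowest unadjusted p in edgeR was 0.111 for Epb42 and 0.0756 for Slc4a1.

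Hbb and Alas2 varied more between animals of a group than most genes. Hbb spanned 4.12-fold over the 32 livers and Alas2 4.85-fold. After group means were removed, the SD of log2 CPM was 0.48 for Hbb and 0.59 for Alas2, larger than in 96.9% and 98.1% of the 8087 genes with a mean of at least 5 CPM (median 0.15). The SD of Slc4a1 was 0.29, larger than in 89.2% of them. This spread sets the width of the intervals given above.

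The 2 genes varied together. With group means removed, Alas2 followed Hbb over the 32 livers at Pearson r = 0.962 and Spearman rho = 0.944 (permutation p = 1e-05, the smallest that 100000 within-group permutations give; adjusted over 11 relations, 1.83e-05), and at 0.951 without the 2 livers farthest in Hbb. Hba1 and Hba2, alpha globin genes, followed Hbb at r = 0.981 and 0.987, and Hbb-b1, another beta globin gene, at 0.986, with rho from 0.977 to 0.990 and the same permutation p. The globin rows LOC689064 (Hbb-bs in RefSeq) and LOC287167 (Hba-a3) followed at 0.982 (rho 0.991) and 0.956 (rho 0.956), with that p as well. Without the 2 farthest livers these 5 values lay between 0.947 and 0.985. Within the alpha and within the beta family, globin genes are near-identical copies, so reads can be split between them and each row is uncertain by itself.

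The other erythroid genes followed Hbb less closely. Pearson r with Hbb was 0.586 for Hemgn (rho 0.547, permutation p = 0.00252 and 0.00481; adjusted 0.00396 and 0.00661) and 0.488 without the 2 farthest livers. For Slc4a1 it was 0.484 (rho 0.442, permutation p = 0.0130 and 0.0263; adjusted 0.0179 and 0.0321), and 0.466 without those livers. For Ahsp it was 0.425 (rho 0.532, permutation p = 0.0186 and 0.00373; adjusted 0.0228 and 0.00586), falling to 0.308 without them. Split by age, r was 0.721 at 30 days and 0.260 at 60 days for Slc4a1, and 0.810 and 0.220 for Ahsp, with 16 livers each. For Hemgn it was 0.733 and 0.550. Klf1 (r = 0.389, rho = 0.362, permutation p = 0.0519 and 0.0743) and Epb42 (r = 0.286, rho = 0.311, permutation p = 0.159 and 0.121) did not pass. Ahsp, Hemgn, Epb42 and Klf1 had few reads, and the part of counting error in their lower r was not tested.

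**Figure D3:**
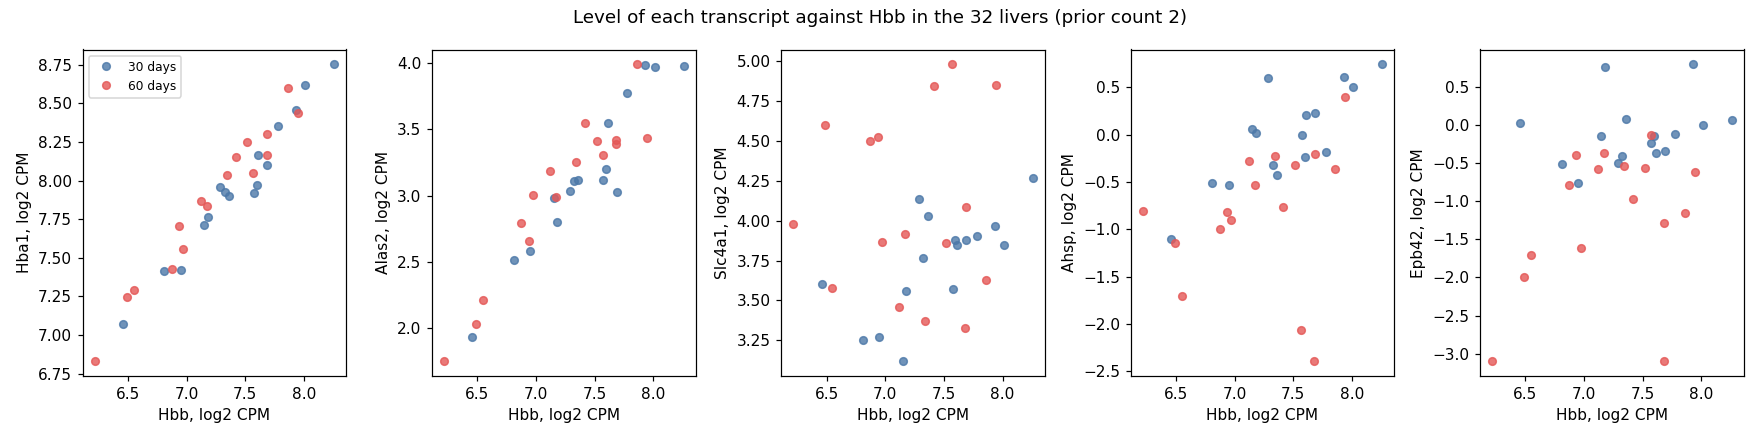
Log2 CPM of Hba1, Alas2, Slc4a1, Ahsp and Epb42 against that of Hbb in the 32 livers (points; blue 30 days, red 60 days; prior count 2). Hba1 and Alas2 follow Hbb along 1 line at both ages, some 60-day livers lie above all others for Slc4a1, and the lowest values of Ahsp and Epb42 are those of 60-day livers, with the ages overlapping.

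Because Hbb varies between livers, each gene was also expressed as a ratio to Hbb in the same liver, a measure chosen after the data were seen. The ratio of Alas2 to Hbb differed by 0.08 (log2) between the ages (exact two-sided permutation within sex and genotype, p = 0.205). Epb42 fell relative to Hbb by 0.84 (exact p = 0.00147; adjusted over 5 tests, 0.00522), lower in each of the 4 combinations (-1.15, -0.66, -0.87 and -0.70 in WT females, KO females, WT males and KO males). Ahsp fell by 0.57 relative to Hbb (exact p = 0.00479; adjusted 0.00798), lower in KO females, WT males and KO males (-0.88, -0.69 and -0.72) but not in WT females (0.01). Hemgn fell by 0.61 (exact p = 0.0246; adjusted 0.0307), again not in WT females (0.17), and this p was 0.0601 without replicate 1 of the 60-day WT females. Slc4a1 rose by 0.57 relative to Hbb (exact p = 0.00209; adjusted 0.00522), by 1.21 and 0.71 in WT and KO females and by 0.34 and 0.02 in WT and KO males. The same genes therefore separated from Hbb in the direction of their age differences, which is in part the same measurement.

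All globin rows of the table were looked up. Hba1 lay between 114 and 431 CPM, Hba2 between 41.7 and 151, Hbb-b1 between 13.5 and 47.3, LOC689064 between 8.72 and 40.0 and LOC287167 between 2.45 and 10.7. Globin genes together, Hbb included, took 0.0247% to 0.110% of gene reads (mean 0.0573%). None of these 5 rows was called for age, genotype or sex in the averages, beside 53.0%, 3.12% and 30.2% of all genes. All 5 were positive for KO against WT, with a median log2 difference of 0.32 (0.29 to 0.33, SE 0.15 to 0.18), so a modest change is not excluded. These rows vary together between livers, so they are not 5 separate observations. With library totals alone, Hba2 passed for age (log2 -0.37, adjusted p = 0.0361). LOC100134871 (Hbbl1) had 150 reads, 111 of them at 30 days. It fell under the filter with all 32 libraries; in fits that left out 1 library and tested 6 globin rows, up to 1 row was called lower at 60 days, and none of the 5 above changed its call in those fits. Embryonic globins were at the limit of detection or not detected: Hbe1 had 2 reads in all, and Hbe2, Hbz and Hbg1 had 0. As for Gata1, no library gives a check that reads can be assigned to the Hbe2, Hbz and Hbg1 rows.

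The genes most like the 6 tested members were named by their Pearson r with the mean of the members' standardised log2 CPM over 32 livers. Besides 5 globin rows (r from 0.731 for LOC287167 to 0.887 for Hba2), they were Cdc25b at 0.813, a phosphatase of mitotic entry; Lgals5 at 0.812, a galectin known from rat reticulocytes; and the blood group genes Rhd at 0.800 and Kel at 0.753, with the membrane skeleton gene Add2 at 0.743. With group means removed, Cdc25b (0.840), Lgals5 (0.767), Rhd (0.750) and Kel (0.741) were named again and Alox15, a lipoxygenase of maturing reticulocytes, came in at 0.765. Over the 32 livers the members' own r with their mean was 0.877 for Hbb, 0.839 for Alas2, 0.774 for Hemgn, 0.717 for Ahsp, 0.593 for Epb42 and 0.275 for Slc4a1. Each member is part of that mean, which raises its r, so these values cannot be set against those of the other genes. Slc4a1 had the lowest r on this scale. With group means removed that was not so: r was 0.736 for Slc4a1, above Hemgn (0.720), Ahsp (0.610) and Epb42 (0.560), and 0.873 for Alas2 and 0.859 for Hbb.

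Wider lists of the same pathways were read against the 53.0% of genes called between the ages. Of 13 tested red cell membrane genes, 6 were lower and 4 higher at 60 days (median -0.36 against -0.003 over all genes). With 1 library left out, 5 to 8 of this list were lower and 4 higher. Sptb, the beta spectrin of the membrane skeleton, was 4.43 ± 2.50 CPM at 30 days and 1.27 ± 1.48 at 60 days (SD, n = 16 each; log2 -1.94, adjusted p = 3.04e-06), and -2.17 without the library that holds photoreceptor transcripts, in which it was highest at 60 days. Kel and Rhd were named for following the members over these same livers, so their age differences are not independent of the members' own. Kel fell from 0.747 ± 0.430 to 0.336 ± 0.312 CPM (log2 -1.36, adjusted p = 0.000763). Rhd differed by -0.82 (adjusted p = 0.0249), a call lost without replicate 1 of the 30-day KO females (adjusted p = 0.0569) or replicate 4 of the 30-day WT males (0.0543). Tmod1, a tropomodulin that caps actin filaments, rose from 0.273 ± 0.135 to 2.21 ± 1.15 CPM (log2 2.83, adjusted p = 1.54e-12). Aqp1, a water channel also made by endothelium and bile duct cells, rose by 0.89 (adjusted p = 4.02e-07) and Gypc, glycophorin C, by 0.45 (adjusted p = 4.61e-08).

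Of 11 tested erythroid transcription factors, 2 were lower and 5 higher at 60 days. Nfe2, whose product binds globin control regions and also serves megakaryocytes, was 23.5 ± 12.1 CPM at 30 days and 4.25 ± 4.74 at 60 days (log2 -2.70, adjusted p = 6.46e-09). Runx1 rose from 0.446 ± 0.179 to 0.975 ± 0.410 CPM (log2 1.07, adjusted p = 1.27e-05), and Zfpm1 (Friend of GATA) and Ldb1 rose by 0.37 and 0.29 (adjusted p = 2.61e-06 and 2.36e-07). These factors also act outside the erythroid lineage, and neither Gata1 nor Klf1 had the reads for a test.

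Of 13 heme synthesis genes, which hepatocytes use as well, 3 were lower and 3 higher. Slc25a38, the mitochondrial glycine carrier, rose from 31.1 ± 4.49 to 43.8 ± 4.68 CPM (log2 0.50, adjusted p = 1.14e-10), and Uros rose by 0.40 (adjusted p = 1.53e-05). Abcb6, a porphyrin transporter, fell from 64.2 ± 6.29 to 48.9 ± 5.32 CPM (log2 -0.39, adjusted p = 2.76e-11), and Cpox fell by 0.28 (adjusted p = 1.49e-05). With library totals alone this split was 7 lower and 2 higher, and with 1 library left out it was 2 to 4 lower and 3 to 4 higher.

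Of 8 tested genes for erythroid receptors and iron uptake, 3 were lower and 3 higher. Transferrin receptor Tfrc was 124 ± 24.4 CPM at 30 days and 86.1 ± 23.3 at 60 days (log2 -0.53, adjusted p = 0.000643), and Kit, the stem cell factor receptor, fell by 0.46 (adjusted p = 0.00111). Tfr2, the hepatocyte and erythroid iron sensor, rose from 435 ± 55.7 to 563 ± 62.7 CPM (log2 0.38, adjusted p = 6.82e-10) and Stat5a rose by 0.49 (adjusted p = 4.11e-08). With library totals alone the split was 4 lower and 2 higher, and with 1 library left out it was 2 to 3 lower and 3 to 4 higher. Of 16 tested reticulocyte and red cell enzyme genes, 3 were lower and 7 higher, and 5 and 4 with library totals alone. With 1 library left out, 3 to 4 of them were lower and 7 to 8 higher. Examples were Blvrb (log2 0.44, adjusted p = 4.79e-07), Cpeb4 (0.46, adjusted p = 4.65e-06), Ube2l6 (0.38, adjusted p = 3.52e-06) and Gclm (-0.64, adjusted p = 2.42e-06).

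**Figure D4:**
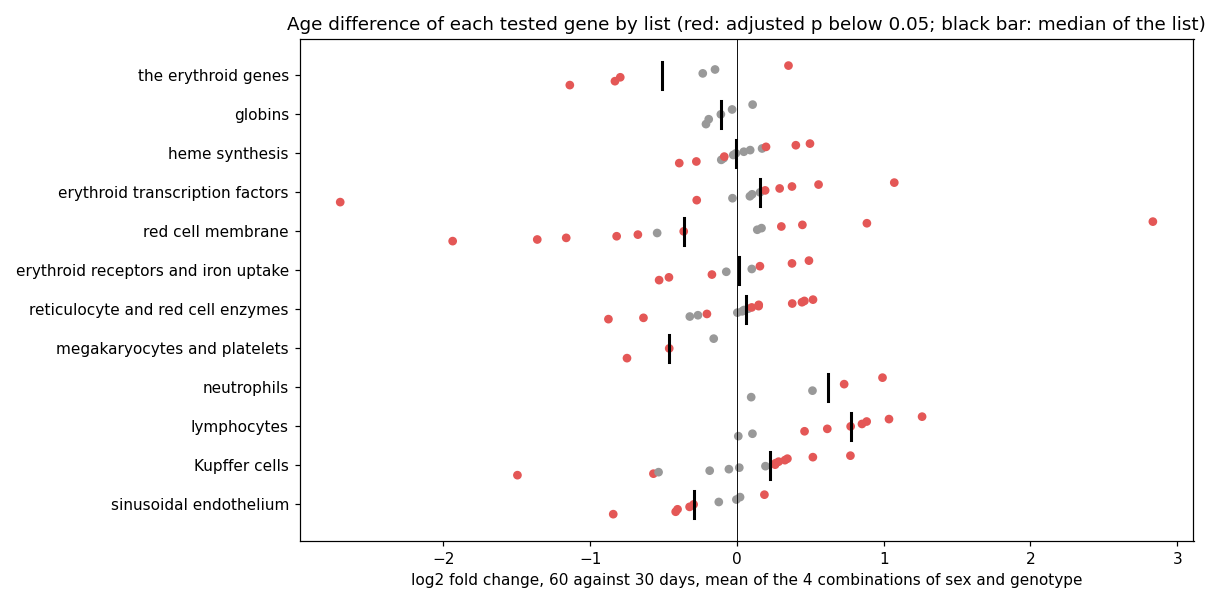
Log2 fold change at 60 against 30 days, averaged over the 4 combinations of sex and genotype, of every tested gene in 12 lists (points; red marks an adjusted p below 0.05; black bars are list medians). The erythroid genes and the red cell membrane list spread to both sides with medians of -0.51 and -0.36, and the lymphocyte list lies right of 0.

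Markers of other cells were read against the same 53.0% of all genes called between the ages. Apart from the cell cycle, lymphocyte and fetal liver lists, the shares called in either direction lie near it. All 24 cell cycle genes were lower at 60 days (median log2 -3.76; summed level 187 to 675 CPM at 30 days and 32.9 to 98.7 at 60 days, the ranges not overlapping). Of 9 tested lymphocyte genes 7 were higher and 0 lower (median 0.77; 13.6 to 36.8 CPM against 23.1 to 43.3; 1 of 15 listed in the table had no read). Megakaryocyte and platelet genes were 2 lower of 3 tested (26.5 to 44.1 against 16.5 to 31.4 CPM; 2 of 9 had no read), and neutrophil genes 2 higher of 4 (0.660 to 8.15 against 2.02 to 7.25 CPM; 1 of 16 had no read). That neutrophil count was 1 without replicate 3 of the 30-day WT females, replicate 2 of the 30-day KO males, replicate 3 of the 60-day WT females, replicate 3 of the 60-day WT males or replicate 2 of the 60-day KO males, and 3 without replicate 4 of the 30-day WT males. Kupffer cell genes, of macrophages that clear old red cells, were 7 higher and 2 lower of 14 (433 to 1039 against 513 to 1330 CPM). Sinusoidal endothelium genes were 1 higher and 5 lower of 9 (313 to 506 against 299 to 498 CPM). Fetal liver genes were 3 lower of 4 tested (70.9 to 1205 against 9.01 to 22.4 CPM), and hepatocyte genes 4 higher and 2 lower of 10. With 1 library left out, the genes called higher were 6 to 7 for lymphocytes, 6 to 8 for Kupffer cells, 0 to 1 for endothelium and 3 to 6 for hepatocytes. The summed level of the 9 erythroid genes was 105 to 345 CPM at 30 days and 94.3 to 289 at 60 days. The part of these cell types, of growth and of depth in the age differences of Epb42, Ahsp, Hemgn and Slc4a1 was not tested.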

How the data were processed

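Livers of 32 rats were compared in 8 groups of 4 by sex, genotype and age. The authors deposited raw read counts per gene for 17327 genes, and log2 values for 11344 genes that equal log2 CPM recomputed from those counts (largest difference 5.0e-09). Per the labels' protocols, RNA was extracted with Trizol and made into stranded mRNA libraries. STAR, Cufflinks, limma and Rnor_5.0 are named, with no versions, per the submitters' processing notes; how reads were counted was not given in the sources used here. Rows for reads in no feature (18.0% to 21.2% of each library) or in several (0.262% to 0.648%) were left out.

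Counts were fitted with edgeR 4.0.16 (R 4.3.3; filterByExpr, minimum count 10; TMM; robust quasi-likelihood test) over 8 group means and 24 residual degrees of freedom, with Benjamini-Hochberg adjustment over the 11002 genes tested and a call at 0.05. The biological coefficient of variation was 0.148. CPM are TMM-scaled, and log2 CPM use a prior count of 2. Fold changes are on the fit's log2 scale. A 3-read floor was used for zeros. The fit was tested on simulated data.

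The erythroid genes and lists were chosen with earlier results of these data known. Named were all 9 erythroid genes, every globin row, the 10 genes most like the tested members, and genes of the wider erythroid lists. Of each such list these were up to 4 called genes with the lowest adjusted p between the ages. Lists of other cells, the cell cycle and fetal liver are given as counts of called genes, with Csf3r and Afp named where their calls changed. Ratios to Hbb were compared by exact permutation. Alternatives were RLE, upper-quartile and no scaling, no filter, library totals without globins, only the groups compared, the title number as a covariate at 30 days, DESeq2 1.42.0, limma-voom (limma 3.58.1) and leaving out each library.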

Additional observations from a re-analysis of the deposited data

Results flagged for a closer look

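Levels of 12 erythroid and globin genes in 8 groups were examined for a liver far from the other 3 of its group, and 8 of 96 sets held one, where chance gives about 1 in 20. The 8 sets involve 3 livers. In the 30-day WT females, replicate 3 was lowest: Alas2 was 3.70 CPM against 8.58 to 9.08 in the others, Hba1 134 against 239 to 251, and LOC689064 10.6 against 21.2 to 23.3. In the 30-day KO females, replicate 1 was highest: Alas2 was 15.6 CPM against 8.05 to 8.52, and Hba1 431 against 243 to 274. In the 30-day WT males, replicate 4 was highest: Hbb was 258 CPM against 123 to 145, Hba2 146 against 69.1 to 77.5, and LOC287167 10.7 against 4.14 to 5.23. These genes vary together, so the sets are not independent.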

How the results depend on the processing

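No paired analysis was possible because no label ties an animal of 1 group to an animal of another. Outside the fits that left out 1 library, 4 counts of members called moved. In KO females the age count went from 1 to 0 members with no scaling beyond the library total. In KO males it went from 0 to 1 with no scaling (Epb42, -1.36, adjusted p = 0.0466) and to 1 with only the groups compared (Hemgn, -1.23, adjusted p = 0.0359). For age by sex in KO rats it went from 0 to 1 with DESeq2 (Slc4a1). Leaving out each library in turn gave 1 to 2 members in WT females, 0 to 1 in KO females and 0 to 1 for age by sex in KO rats. The other 176 counts under an alternative setting, and 279 under a left-out library, stayed within 1.5 times the main count. Hemgn lost its mean age call with no filter (-0.79, adjusted p = 0.0516), where 14342 genes are tested.

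Differences near 0 changed sign. With no scaling, Alas2 in WT males went from 0.10 to -0.050 and LOC287167 over the mean age contrast from 0.11 to -0.055. With 1 library left out, the age difference of Alas2 in WT males ran from -0.24 to 0.51, of Hbb in WT males from -0.25 to 0.27, of Alas2 in KO females from -0.22 to 0.17, of Hbb in KO females from -0.26 to 0.14, and of Hbb-b1 in the mean from -0.10 to 0.057. The sex difference ran from -0.047 to 0.18 for Ahsp, from -0.015 to 0.12 for Hbb and from -0.019 to 0.27 for Hemgn. None of these was called in any fit. Csf3r, a neutrophil gene, lost its age call with no scaling (0.58, adjusted p = 0.0809) and in 5 of 32 fits with 1 library left out (adjusted p up to 0.0738), and Afp with limma-voom (-0.74, adjusted p = 0.127). Hba2 gained one with no scaling (-0.37, adjusted p = 0.0361). The cause of these changes was not tested. Ratios to Hbb, with prior counts of 0.5 and 5 added after seeing the data, kept their side of the threshold. Ahsp, Epb42 and Hemgn had 0 to 35 reads a library, which limits their precision.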
